A study of Mus musculus with 18 samples.

Results

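The heat shock chaperones are described here from 9 genes, the rows of a nascent RNA count table of 54232 gene identifiers whose mouse symbol is Hspa8, Hspa1a, Hspa1b, Hsph1, Dnajb1, Hsp90ab1, Hsp90aa1, Hspa5 or Hspa9. The genes were chosen by name, from a list of 10 of which the remaining gene is not analysed here. All 9 passed the filter on low counts. The assay was 4sU-seq, where cells are fed 4-thiouridine (4sU), a uridine analogue built into RNA as it is made, so that newly made RNA can be coupled to biotin, purified and sequenced. Fetal livers of C57BL/6 mouse embryos, taken at e12.5 to e13.5, gave 6 sorted populations with 3 replicates each, 18 libraries in all. All 6 were rested for 6 h in erythroid medium after the sort and then labelled with 500 µM 4sU for 45 min. The 5 erythroid populations were lineage-negative and were ordered by CD71, the transferrin receptor, and Ter119, a surface marker of maturing erythroid cells. S0-Low cells were named CD71 low, with CD71- and Ter119- as their gate, S0-Medium had medium CD71 and S1 high CD71, both Ter119-, and S2 and S3 had high CD71 with medium and high Ter119. The study takes S0-Low for stem, progenitor and erythroid burst-forming cells, S0-Medium for early and S1 for late erythroid colony-forming cells, and S2 and S3 for cells in terminal differentiation. Lin+ cells carried markers of other blood lineages.

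Heat shock proteins of the HSP70 family bind unfolded stretches of other proteins and let go of them in a cycle driven by ATP. J proteins such as Dnajb1 bring clients to them, HSP110 proteins such as Hsph1 exchange their nucleotide, and HSP90 proteins take over late-folding clients such as kinases and steroid receptors. Cells make constitutive members at all times, inducible members after stress through heat shock factor 1, and separate members for the endoplasmic reticulum (ER) and the mitochondria. In maturing erythroid cells chaperones of these families are known for protecting the transcription factor GATA1 and for handling the large output of globin.

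Newly made RNA of the chaperones did not move as one group along erythroid maturation. The inducible pair Hspa1a and Hspa1b was low from S0-Low to S2 and rose in S3, their summed level being 28.5-fold that in S2. Dnajb1 rose 3.15-fold from S0-Low to S3, but missed the threshold when libraries were scaled by their totals alone. The mean of Hsp90ab1 fell by a factor of 3.31, with overlapping ranges and a call that was lost when single libraries were left out. The constitutive Hspa8, stress-linked Hsp90aa1 and Hsph1, and ER and mitochondrial members Hspa5 and Hspa9 did not pass the main test between S3 and S0-Low. That test left the replicate number out. With the replicate number as a block Hspa8 passed as lower in S3, and with scaling by library totals in addition Hspa9 did so too.

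Total counts per library ranged from 9452476 to 40567976, the lowest in replicate 3 of S0-Low, and 3 counts, taken as the smallest level a library can show, came to between 0.0622 and 0.249 CPM (counts scaled to library size and TMM factor). Such limits cover counting error only, since PCR copies were not told apart by molecular identifiers. Markers of the erythroid list rose in S3 against S0-Low for 8 of 8 genes, and so did 4 of the 4 adult globin genes found, the main clients of a maturing red cell, beside 13.4% of all genes. Libraries of replicate 3 stood apart in the chaperones, as given below with values without them. The Lin+ cells are labelled erythroblasts, but the summed level of 8 erythroid markers was 274 to 351 CPM there against 501 to 1070 CPM in S0-Low, and the sum of 8 neutrophil markers was 3330 to 5990 CPM against 340 to 798 CPM.

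Promoter sequence is shown for 4 genes, those whose window in the RefSeq promoter table (GRCm38.p6) ends where the gene begins. Each sequence is the 250 bases before the gene's start, 5′ to 3′ on the gene's strand. Capitals mark exact matches to GAANNTTC or TTCNNGAA, short letter runs of the heat shock element, each its own reverse complement. They also mark the ER stress element (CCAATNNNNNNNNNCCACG) and TGACGTG, a core letter run of unfolded protein response sites, both searched on both strands.
Hspa1a (chr17:34972157-34972406, minus strand): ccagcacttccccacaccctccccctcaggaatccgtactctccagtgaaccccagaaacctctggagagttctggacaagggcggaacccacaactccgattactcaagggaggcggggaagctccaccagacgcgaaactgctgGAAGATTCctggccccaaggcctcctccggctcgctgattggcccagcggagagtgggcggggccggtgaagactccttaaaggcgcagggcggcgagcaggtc
Hspa1b (chr17:34959239-34959488, minus strand): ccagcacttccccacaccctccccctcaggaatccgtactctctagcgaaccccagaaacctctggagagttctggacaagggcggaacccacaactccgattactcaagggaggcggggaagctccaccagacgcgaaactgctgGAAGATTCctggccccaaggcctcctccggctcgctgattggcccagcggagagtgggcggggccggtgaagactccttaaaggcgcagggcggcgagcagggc
Dnajb1 (chr8:83607925-83608174, plus strand): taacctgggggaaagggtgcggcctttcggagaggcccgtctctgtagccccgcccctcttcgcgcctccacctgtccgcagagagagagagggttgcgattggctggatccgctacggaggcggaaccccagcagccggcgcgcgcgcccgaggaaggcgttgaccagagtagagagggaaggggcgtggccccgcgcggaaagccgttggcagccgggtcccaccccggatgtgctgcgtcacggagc
Hspa5 (chr2:34771840-34772089, plus strand): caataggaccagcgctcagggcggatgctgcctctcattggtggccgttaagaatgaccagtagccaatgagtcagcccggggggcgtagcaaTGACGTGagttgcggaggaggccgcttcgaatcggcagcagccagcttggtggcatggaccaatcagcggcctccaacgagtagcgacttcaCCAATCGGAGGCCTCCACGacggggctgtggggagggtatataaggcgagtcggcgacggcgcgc
The windows of Hspa1a and Hspa1b had the same base at 247 of 250 positions, and each held 1 match to GAANNTTC, which starts 104 bases before the gene's start. Dnajb1 held none of the 4 letter runs, and none of the 4 windows held TTCNNGAA. Hspa5 held 1 ER stress element and 1 TGACGTG, at 65 and 157 bases before its start. Among 32851 promoter windows of that length, 6.69% held GAANNTTC, 7.17% held TTCNNGAA, 0.113% held the ER stress element and 1.65% held TGACGTG. A match is a run of letters, and binding was not measured here. The lack of an exact match in these windows does not show that a gene has no such element.

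Hspa1a (ENSMUSG00000091971, chr17:34969359-34972156 of GRCm38.p6) and Hspa1b (ENSMUSG00000090877, chr17:34956429-34959238) encode the stress-inducible HSP70 of the cytosol and lie close together. In S3, Hspa1a had 166, 122 and 137 CPM in replicates 1 to 3. In S2 it had 1.82, 3.68 and 6.84 CPM, and in S0-Low 0.517, 0.698 and 2.66 CPM. Every S3 library was above every library of the other 5 populations. Hspa1b had 200.1, 229.9 and 224.9 CPM in S3, against 2.54, 10.1 and 12.9 CPM in S2 and 7.42, 6.76 and 9.72 CPM in S0-Low. It was again higher in each S3 library than in any other library, and its lowest value was 2 counts in S0-Medium replicate 3. In annotated transcripts of another mouse build, 70.6% of the stretches of 31 bases of Hspa1a also occur in another coding gene, mostly Hspa1b, and 67.6% of those of Hspa1b do, mostly in Hspa1a. The division of reads between the pair is therefore uncertain, and their sum is the firmer value.

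The summed level of the pair, from S0-Low to S2, was 9.26 ± 2.71, 6.20 ± 4.89, 10.1 ± 7.28 and 12.6 ± 7.77 CPM (mean ± SD, n = 3). S3 had 360.0 ± 7.0 CPM and Lin+ cells 7.24 ± 6.70 CPM. The 3 S3 libraries lay between 352 and 366 CPM, and the highest library elsewhere, S2 replicate 3, had 19.8 CPM, so the populations before S3 overlapped with each other and not with S3. In the quasi-likelihood test of edgeR, adjusted by Benjamini-Hochberg for all genes tested, Hspa1a changed from S2 to S3 by 5.11 ± 0.71 on the log2 scale (SE, adjusted p = 0.000688). Hspa1b changed by 4.68 ± 1.15 (adjusted p = 0.0194). The latter call was lost without S2 replicate 1 (adjusted p = 0.085) or S2 replicate 2 (adjusted p = 0.0745), with changes of 4.24 and 4.81. These data are from bulk samples, in which a change in the share of cells that transcribe a gene and a change in the rate per cell cannot be told apart.

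Immediate early genes, a list of 12 that respond quickly to handling and stress, had their highest summed level in S3, to which Btg2 gave the most (mean 1140 CPM). The sum was 159 to 316 CPM in S0-Low, 298 to 1130 CPM in S2 and 1450 to 2550 CPM in S3. Against S0-Low, 5 of the 12 were higher in S3 (Ier2, Ier3, Atf3, Dusp1 and Btg2) and 1 was lower (Nr4a1), beside 13.4% and 22.4% of all genes. Against S2, 2 of the 12 were higher (Ier2 and Dusp1), beside 3.26% of all genes, and Jun had a higher mean in S2 (52.4 CPM) than in S3 (39.2 CPM). Their part in the rise of Hspa1a and Hspa1b was not tested. Summed markers of macrophages, neutrophils, lymphoid cells, mast cells and hepatocytes were each at most 4.28 CPM in any S3 library, with mast cell and hepatocyte markers at 0, whereas megakaryocyte markers came to 18.3 to 86.6 CPM.

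**Figure D1:**
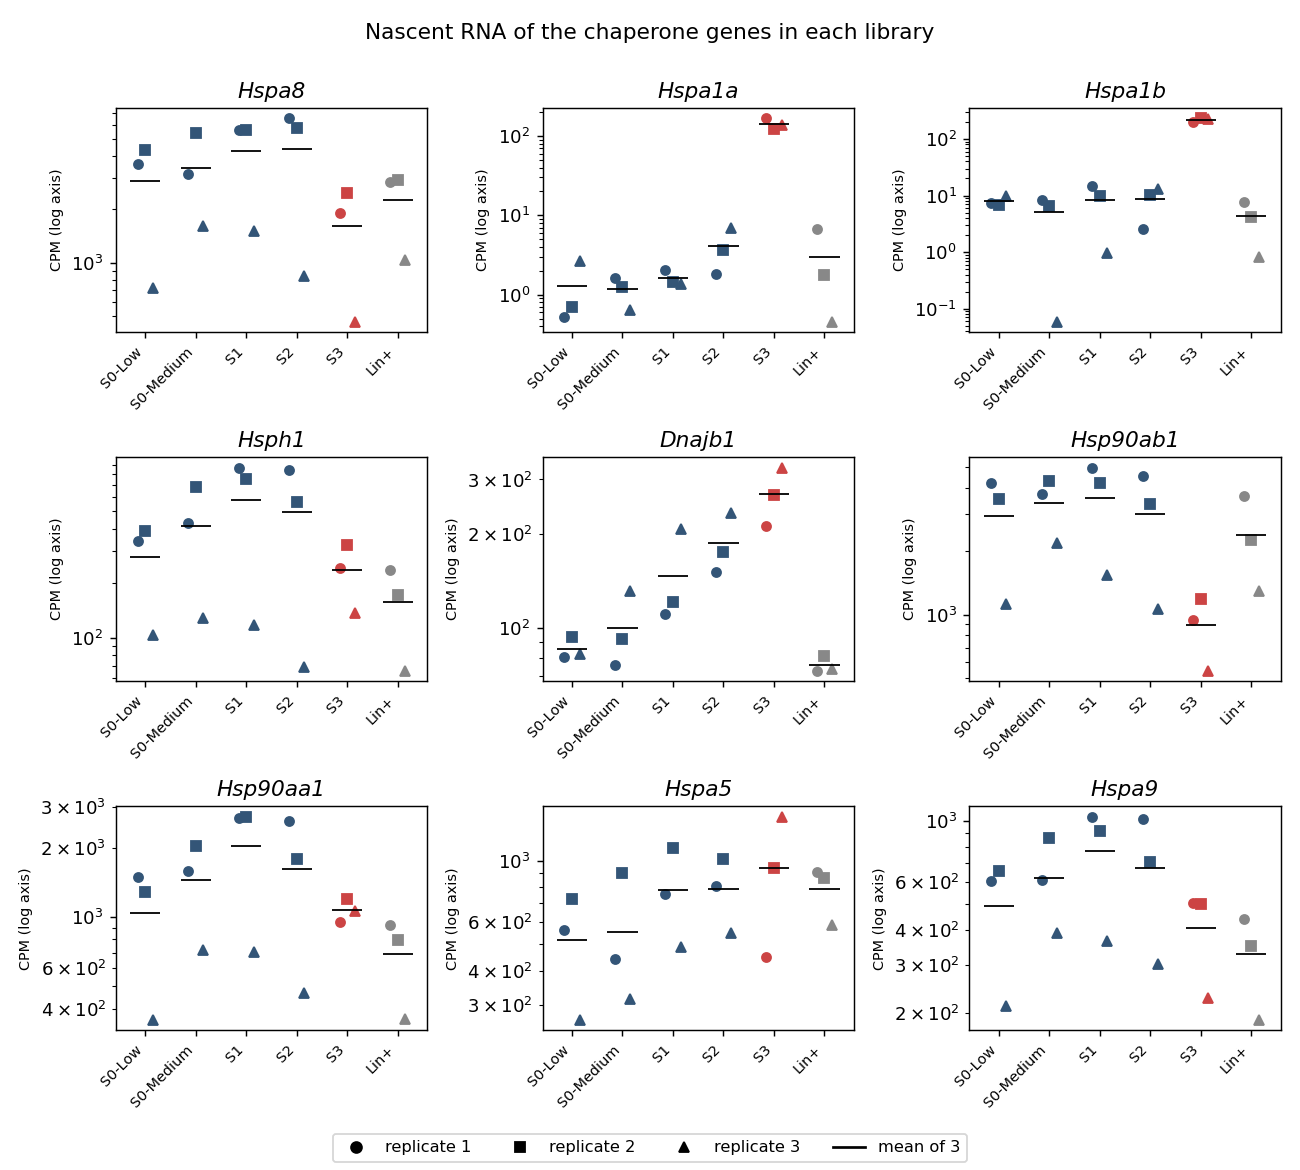
Nascent RNA level of each chaperone gene in CPM (log axis) by population, with circles, squares and triangles for replicates 1, 2 and 3 and a line at the mean of 3. Hspa1a and Hspa1b stand out in S3, Dnajb1 is highest in S3, and replicate 3 is the lowest library of every population for Hspa8, Hsp90ab1, Hsph1 and Hspa9.

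Hspa8 (ENSMUSG00000015656, chr9:40801276-40805202) encodes the constitutive HSP70, HSC70. It had 3611, 4331 and 718 CPM in S0-Low, 6532, 5749 and 844 CPM in S2 and 1904, 2461 and 462 CPM in S3. Its mean was highest in S2 (4375 CPM) and lowest in S3 (1609 CPM), but replicate 3 of each population lay far below the other replicates and the ranges overlapped. The change from S2 to S3 was −1.44 ± 0.81 on the log2 scale (SE, adjusted p = 0.266, 95% interval −3.15 to 0.28). The S3 library was the lower one in 3 of 3 same-numbered pairs, and with the replicate number as a block the change was −1.33 ± 0.30 (SE, adjusted p = 0.00671). Per kilobase of exon Hspa8 and Hsp90ab1 had the highest means of the members in all 6 populations, at 387 and 297 CPM per kilobase in S3. The length was the union of all annotated exons in another mouse build, 4.156 kb for Hspa8, whose coding transcripts hold 2576 stretches of 31 bases. Levels per kilobase of different genes therefore compare only roughly. They ranked highest in 17 libraries, the exception being S3 replicate 3, where Hspa5 (410 CPM per kilobase) and Hsp90aa1 (270) stood above Hsp90ab1 (181) and Hspa8 (111). The mean levels of the inducible pair were below both even in S3, at 48.4 (Hspa1a) and 77.9 (Hspa1b) CPM per kilobase. Pseudogenes hold 73.1% of the 31-base stretches of Hspa8, and the counts deposited for those in the table were at most 0.0266% of their sum with Hspa8.

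Counted as a ratio within each library, which does not depend on how libraries are scaled, the sum of Hspa1a and Hspa1b was 0.0022, 0.00172 and 0.0173 of Hspa8 in S0-Low. In S3 it was 0.192, 0.143 and 0.782 of Hspa8. The 2 populations did not overlap, and the difference was 6.11 on the log2 scale, 69.0-fold. It was 41.1-fold without S3 replicate 3, 45.1-fold without S0-Low replicate 2 and 143-fold without S0-Low replicate 3. An exact two-sided permutation test gave p = 0.1, the smallest that 3 libraries against 3 allow, and 0.3 after Benjamini-Hochberg adjustment over 6 ratios. In S2 the ratio was 0.000671, 0.0024 and 0.0235. For S3 against S2, a comparison of ratios chosen after seeing the data, the difference was 6.37 (82.9-fold, exact permutation p = 0.1, adjusted p = 0.3), with no overlap. It was 37.0-fold without S2 replicate 1, 49.4-fold without S3 replicate 3 and 219-fold without S2 replicate 3, so its size rests on single libraries.

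Dnajb1 (ENSMUSG00000005483, chr8:83608175-83612653), the main J protein partner of inducible HSP70, had a higher mean in each population than in the one before. It had 80.6, 93.3 and 82.4 CPM in S0-Low and 111, 121 and 208 CPM in S1. It had 151, 176 and 235 CPM in S2 and 213, 268 and 328 CPM in S3. Each S3 library lay above every S0-Low library, whereas S2 and S3 overlapped. The change from S0-Low to S3 was 1.66 ± 0.33 on the log2 scale (SE, edgeR adjusted p = 0.00131). Scaled by library totals alone it was 0.79 (adjusted p = 0.0593). Under that scaling the median of all genes moved from −0.54 to −1.36, so that relative to the median gene Dnajb1 was higher in both. Replicate 3 of Dnajb1 was not low: it was the highest library in 4 of 6 populations. Hspa1a had no steady shift in replicate 3 either, which was its lowest library in 3 populations and its highest in 2.

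The genes whose log2 level most resembled that of Dnajb1 over the 18 libraries, among 12051 candidates, included Arrdc2 (Pearson's r = 0.988), 2310003C23Rik (0.984), Ubac1 (0.984) and Pigq (0.979). Libraries also differ in depth and share replicate numbers, so these values describe the pattern and carry no test. The resemblance of Dnajb1 to other members was weaker, at 0.716 for Hspa1a and −0.331 for Hspa8.

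Hsph1 (ENSMUSG00000029657, chr5:149616843-149636498), the HSP110 exchange factor, shared neither the rise of the inducible pair nor the course of Dnajb1. It had 342, 389 and 104 CPM in S0-Low, 868, 748 and 118 CPM in S1 and 244, 325 and 137 CPM in S3. The highest mean was in S1 (578 ± 403 CPM, SD, n = 3), and S3 overlapped with S0-Low. The change from S0-Low to S3 was −0.24 ± 0.81 (SE, adjusted p = 0.833, 95% interval −1.97 to 1.48).

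Hsp90ab1 (ENSMUSG00000023944, chr17:45567778-45573261) encodes the constitutive cytosolic HSP90 and Hsp90aa1 (ENSMUSG00000021270, chr12:110691036-110696395) the inducible one. Hsp90ab1 had 4194, 3531 and 1122 CPM in S0-Low, 4559, 3355 and 1070 CPM in S2 and 944, 1188 and 543 CPM in S3. In each same-numbered pair the S3 library was below the S0-Low library, although S3 replicate 2 was above S0-Low replicate 3. The change from S0-Low to S3 was −1.73 ± 0.59 on the log2 scale (SE, edgeR adjusted p = 0.0331). That call was lost without S0-Low replicate 1 (adjusted p = 0.0976), S0-Low replicate 2 (0.0714), S3 replicate 1 (0.0711) or S3 replicate 3 (0.11), with changes between −1.78 and −1.45. The size depended on scaling, at −2.5 with library totals (edgeR adjusted p = 0.00418), and was −1.58 with the replicate block (adjusted p = 0.000402). Hsp90aa1 had 1488, 1278 and 358 CPM in S0-Low and 952, 1193 and 1062 CPM in S3. S3 lay within the range of S0-Low, with a change of 0.04 ± 0.63 (SE, adjusted p = 0.97, 95% interval −1.29 to 1.37), a value that was below 0 with RLE factors (−0.05) or library totals (−0.77).

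The balance between both HSP90 genes was also read within each library. The ratio of Hsp90aa1 to Hsp90ab1 counts was 0.355, 0.362 and 0.319 in S0-Low, with geometric means of 0.404, 0.543 and 0.509 for S0-Medium, S1 and S2. The S3 libraries had 1.01, 1.00 and 1.96, and the Lin+ libraries 0.254, 0.349 and 0.278. S3 lay above every other library, and the difference from S0-Low was 1.86 on the log2 scale, 3.64-fold (exact permutation p = 0.1, adjusted p = 0.3 over 6 ratios). Without S3 replicate 3, the highest library, it was 1.54. Pseudogenes share 53.3% of the 31-base stretches of Hsp90aa1, with at most 0.984% of the summed counts deposited for those in the table.

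**Figure D2:**
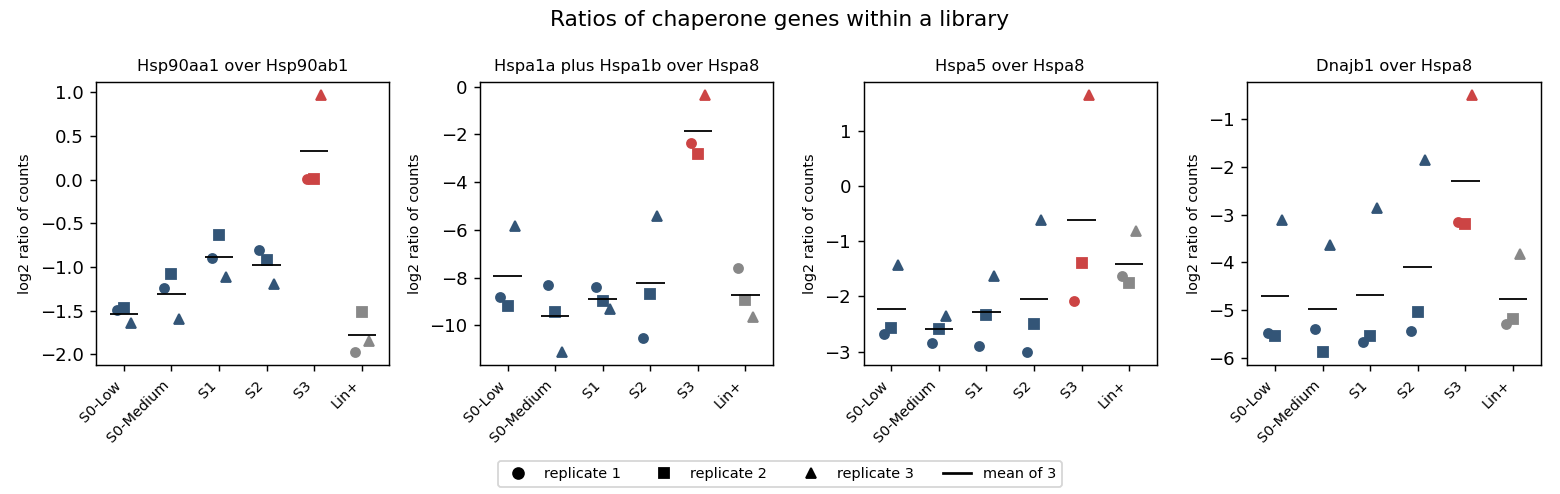
Log2 ratio of counts within each library for 4 pairs of chaperone genes by population, with replicates 1, 2 and 3 as circles, squares and triangles and a line at the mean of 3. The ratio of Hsp90aa1 to Hsp90ab1 and that of the inducible pair to Hspa8 lie above all other libraries in each S3 library, while the ratios of Hspa5 and Dnajb1 to Hspa8 overlap between S3 and S0-Low.

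Hspa5 (ENSMUSG00000026864, chr2:34772090-34776529) encodes BiP, the HSP70 of the ER. It had 560, 724 and 266 CPM in S0-Low, 808, 1014 and 549 CPM in S2 and 448, 940 and 1442 CPM in S3. The S3 libraries spanned a wider range than those of any other population and overlapped with all of them. The change from S0-Low to S3 was 0.87 ± 0.50 on the log2 scale (SE, adjusted p = 0.182), and −0.01 with library totals. Without replicate 3 of each population, an alternative chosen after seeing the data, it was 0.11 (adjusted p = 0.85). The genes most like Hspa5 over the 18 libraries were Dnajb11 (Pearson's r = 0.902), an ER J protein that works with BiP, Slc35b1 (0.846), an ATP carrier of the ER, Paqr3 (0.809), Hirip3 (0.793) and Fam50a (0.791).

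Hspa9 (ENSMUSG00000024359, chr18:34937414-34954351) encodes mortalin, the mitochondrial HSP70, which imports proteins and serves iron-sulphur cluster assembly. It had 606, 655 and 212 CPM in S0-Low, 1017, 709 and 303 CPM in S2 and 503, 499 and 226 CPM in S3. Its populations overlapped throughout, and the change from S0-Low to S3 was −0.26 ± 0.53 (SE, adjusted p = 0.719, 95% interval −1.39 to 0.86). Against Hspa8 in the same library, Hspa5, Hspa9, Hsph1 and Dnajb1 were each higher in the S3 library of 3 of 3 same-numbered pairs with S0-Low, on average by 1.62, 0.60, 0.67 and 2.43 on the log2 scale, but their ranges overlapped (exact permutation p between 0.2 and 0.3, adjusted p = 0.3). Without S3 replicate 3 these differences were 0.50, 0.24, 0.28 and 1.53, and without S0-Low replicate 3 they were 2.02, 0.90, 0.89 and 3.22.

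Replicate 3 was the lowest library of all 6 populations for Hspa8, Hsp90ab1, Hsph1 and Hspa9, a pattern held by 4.35% of 17755 genes. The mean of replicates 1 and 2 of Hspa8 was between 2.57 and 7.26 times that of replicate 3, and for Hsph1 between 2.06 and 9.91 times. The median gene was lower in replicate 3 by only 0.12 on the log2 scale (−0.117, mean over populations). Hsp90aa1 and Hspa5 followed the pattern in 5 of 6 populations, S3 being the exception, where Hspa5 was highest in replicate 3. What set replicate 3 apart was not tested. The labels do not say what a shared replicate number stands for.

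Across all comparisons along the series, the members were called as follows. No member passed between S0-Medium and S0-Low, S1 and S0-Medium or S2 and S1, where edgeR called 0% of genes (0 of 16555) in each, and DESeq2 called 0 members too, beside 0.284%, 2.42% and 0.888% of genes. In these steps 0 members were apart with every library above or below, beside 5.2% and 6.64%, 6.96% and 10.2%, and 3.61% and 7.77% of genes (above and below in turn). At an unadjusted p under 0.05, 0, 0 and 1 members passed, beside 3.26%, 6.86% and 4.03% of all genes, the last being Hspa1a, which was 1.34 higher on the log2 scale in S2 than in S1. Between S3 and S2, 2 of 9 were called, Hspa1a and Hspa1b, beside 9.35% of all genes. Both were higher, as were 3.26% of genes while 6.09% were lower, and both had every S3 library above every S2 library, as had 8.99% of genes, with 14.2% below. With the replicate number as a block, since same-numbered libraries of S2 and S3 deviated together, 4 of 9 were called, beside 18.6% of all genes. Hspa8 (−1.33, adjusted p = 0.00671) and Hsp90ab1 (−1.58, adjusted p = 0.00121) then fell as well, and DESeq2 without the block also called Hsp90ab1 (−1.66, adjusted p = 0.0306). Without replicate 3 of each population 6 of 9 were called, beside 18.9% of all genes, Hsp90aa1 (−1.03) and Hsph1 (−1.31) being lower in addition. Between S3 and S0-Low, 4 of 9 were called beside 35.8% of all genes, 3 of them higher and 1 lower beside 13.4% and 22.4%. The 3 higher members had every S3 library above every S0-Low library, as had 16.6% of genes, and 0 members lay wholly below, beside 25.9%. The median over the members was 0.04 on the log2 scale against −0.54 over all genes. Over the 5 populations together, 3 of 9 differed (Hspa1a, Hspa1b and Dnajb1) beside 24.6% of all genes. With library totals 3 of 9 differed too, beside 28.4% of all genes, but they were not the same. Dnajb1 was then not called (edgeR adjusted p = 0.194) and Hsp90ab1 was (adjusted p = 0.0243).

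**Figure D3:**
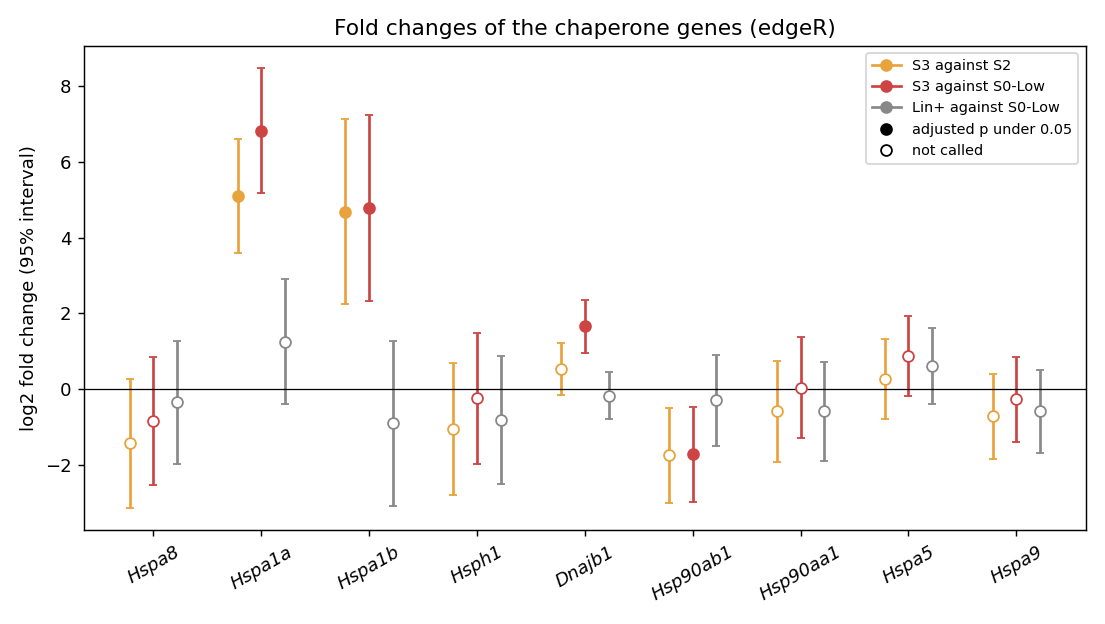
Log2 fold change of each chaperone gene with its 95% interval in 3 comparisons (edgeR), filled where the adjusted p is under 0.05. Hspa1a and Hspa1b lie between 4.68 and 6.84 in the comparisons of S3, and no gene is filled in the comparison of Lin+ with S0-Low.

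Lin+ cells were set against S0-Low. By edgeR 0 of 9 members were called, beside 0.715% of genes (0.496% higher and 0.22% lower), 0 had an unadjusted p under 0.05 (9.85% of genes did), and DESeq2 called 0, beside 3.48% of genes. No member lay wholly above or below, beside 15.7% and 6.96% of genes. Hspa1a had 6.67, 1.77 and 0.456 CPM in Lin+ cells and Hspa1b 7.81, 4.21 and 0.809 CPM, overlapping with S0-Low. The Hspa1a difference was 1.25 (interval −0.41 to 2.91), and −0.15 without Lin+ replicate 1. That of Hspa1b was −0.90 (interval −3.08 to 1.28). Dnajb1 had 72.6, 80.8 and 73.6 CPM, a difference of −0.18 with an interval of −0.80 to 0.45. Against S3, a comparison with the same Lin+ libraries, 3 of 9 were called beside 42.2% of genes. All 3 were lower in Lin+ cells, beside 14.1% lower and 28.2% higher among all genes. These were Hspa1a (−5.58, adjusted p = 0.000129), Hspa1b (−5.68, adjusted p = 0.00162) and Dnajb1 (−1.83, adjusted p = 0.000161). These and Hsp90aa1 lay wholly below S3, 4 of 9 beside 17.3% of genes, and 1 of 9, Hsp90ab1, lay wholly above, beside 36.8%. The difference of Hsp90ab1 was 1.43 and missed the threshold (adjusted p = 0.0566). It passed without Lin+ replicate 3 (1.74, adjusted p = 0.0372), in DESeq2 (1.63, adjusted p = 0.0149), with library totals (2.16, adjusted p = 0.00601) and with the replicate block (1.37, adjusted p = 0.00049).

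The wider chaperone network, 101 other genes listed by role, had 94 tested genes. In S3 against S0-Low 14 were higher and 10 lower, beside 13.4% and 22.4% of all genes, with a median of −0.33 on the log2 scale against −0.54 over all genes. Library totals gave 8 higher and 41 lower, beside 44.6% of all genes in either direction, so the split between higher and lower calls depends on the scaling. The number lower came to 20 without S0-Low replicate 3 and to 5 without S0-Low replicate 2 or S3 replicate 3, beside 32.7%, 26.4% and 24.6% of all genes in either direction. Against S2, 5 were higher and 4 lower, beside 3.26% and 6.09% of all genes, and with the replicate block 19 were lower and 7 higher, beside 18.6% in either direction. Lin+ cells differed from S0-Low in 0 of 94 by edgeR, with 2 higher and 1 lower at an unadjusted p under 0.05, and in 1 higher and 1 lower by DESeq2, beside 0.715% and 3.48% of all genes.

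In S3 against S0-Low, 5 of 15 cytosolic J proteins were higher and 2 lower, beside 13.4% and 22.4% of all genes. Dnaja4, a J protein partner of HSP70, was 4.89 ± 4.13 CPM in S0-Low and 252 ± 173 CPM in S3 (SD, n = 3, log2 change 5.66, adjusted p = 0.000102). Dnajb2, which delivers clients to the proteasome, went from 10.9 ± 6.71 to 339 ± 44.2 CPM (log2 change 4.96, adjusted p = 5.52e-05). Dnajb5 was at 0 counts in each S3 library and at 5.88 CPM in S0-Low, at least 33-fold lower against 3 counts per library (adjusted p = 0.00267). Dnajc2, a J protein of the ribosome, fell from 225 to 52.0 CPM (adjusted p = 0.0234), a call lost without S3 replicate 1, S3 replicate 3 or S0-Low replicate 2 (adjusted p up to 0.0804).

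Among 12 cochaperones of HSP90, 3 were lower (Cdc37, Fkbp4 and Fkbp5), beside 22.4% of all genes, and the other 9 were not called. Fkbp4 and Fkbp5, immunophilins of steroid receptor complexes, were lower by factors of 7.85 (adjusted p = 0.00296) and 4.57 (adjusted p = 0.0392). The call of Fkbp5 was lost without any 1 of the S3 libraries or without S0-Low replicate 1 or 2 (adjusted p up to 0.111), and that of Cdc37 without S3 replicate 1 or 3 or S0-Low replicate 1 or 2 (up to 0.123). Of the 2 heat shock factor genes tested, Hsf2 went from 29.4 to 4.66 CPM (adjusted p = 0.00591), and Hsf1, the factor that drives the inducible genes, had 36.7 CPM in S0-Low and 24.4 CPM in S3 (adjusted p = 0.44). Beside 13.4% of all genes higher and 22.4% lower, the other HSP70 and HSP110 genes gave 1 rise of 7, Hspa4l (3.49-fold, adjusted p = 0.0022). The exchange factors of HSP70 gave 1 of 8, Bag1 (1.71-fold, adjusted p = 0.0422), and the small heat shock proteins 1 of 3, Hspb6 (24.8-fold, adjusted p = 0.00392). The call of Bag1 was lost without any 1 library but S0-Low replicate 1 (adjusted p up to 0.172), and with library totals its change was −0.05.

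Against the same shares of all genes, 13.4% higher and 22.4% lower, of 8 subunits of the TRiC chaperonin, which folds actin and tubulin, 1 was lower (Cct6a, by a factor of 2.81, adjusted p = 0.025), and the 6 prefoldin genes were not called. In the mitochondria Hspd1, the HSP60 chaperonin, was lower by a factor of 5.68 (adjusted p = 0.0288) and Clpx, a protease subunit that also serves haem synthesis, was 2.62-fold higher (adjusted p = 0.0177), with 8 of 10 not called. The calls of Cct6a and Hspd1 were lost without S3 replicate 1, S3 replicate 3 or S0-Low replicate 2 (adjusted p up to 0.0891 and 0.0948). That of Clpx was lost without replicate 3 of S0-Low or S3 (0.0656 and 0.0802) or of every population. It was also lost with library totals, with or without the block, and with only the libraries compared. Over all alternatives the log2 change of Clpx was 0.479 to 1.66 (adjusted p up to 0.295). In the ER list of 23, 5 were higher and 2 lower, beside the 13.4% and 22.4% of all genes. The rises were led by Ddit3, which encodes the stress factor CHOP (23.1 ± 8.59 to 745 ± 379 CPM, adjusted p = 0.000202), and Atf6, a sensor of unfolded protein (5.50-fold, adjusted p = 8.51e-05). Pdia4 and P4hb, which form disulphide bonds in secreted proteins, were lower by factors of 9.13 and 3.18 (adjusted p = 0.00157 and 0.0078).

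**Figure D4:**
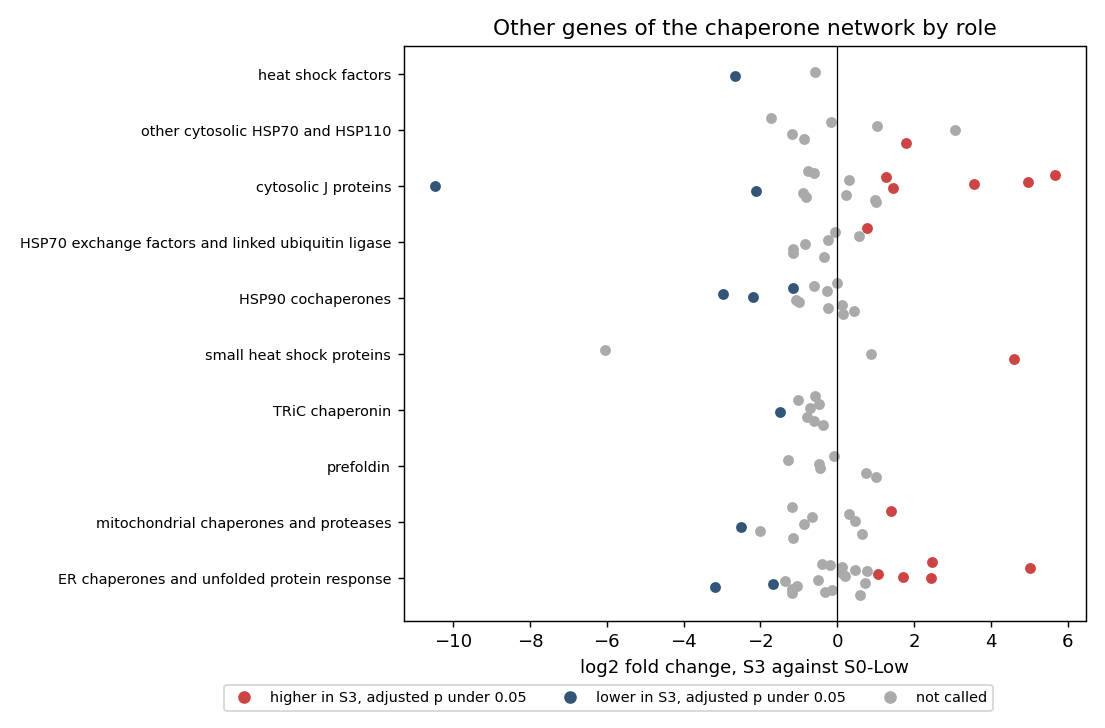
Log2 fold change between S3 and S0-Low of the 94 tested genes of the chaperone network by role, 1 point a gene, red where higher and blue where lower at an adjusted p under 0.05. The cytosolic J proteins hold 5 red points, the HSP90 cochaperones 3 blue ones and the ER group 5 red and 2 blue. The point farthest left is Dnajb5, at 0 counts in S3, whose fitted value is no bound.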

How the data were processed

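Libraries were made with a stranded total RNA kit (SMARTer, Takara) and PCR. The authors quantified reads with Kallisto 0.43.0, on GRCm38 per the labels, and deposited 1 table of raw counts per gene identifier for the 18 libraries. Groups and replicate numbers came from the labels. Identifiers were paired with symbols through RefSeq and gene name tables (32651 of 54232). The remaining listed gene, and a gene among those most like Dnajb1, are not reported here.

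Counts were tested with edgeR 4.0.16 (R 4.3.3, filterByExpr, TMM, quasi-likelihood, Benjamini-Hochberg, threshold 0.05). The 15 erythroid libraries entered one fit (16555 genes) and all 18 the fit for Lin+ (17755 genes). Levels are CPM scaled by TMM over 18 libraries. Ratios used log2 of counts plus 0.5 and exact two-sided permutation tests. Genes were named by rule: all 9 members, up to 2 called network genes per role and direction with the largest change, where the higher population averaged 100 normalized counts or more, the immediate early, globin and marker lists where a result touches them, and the 5 genes most correlated with Dnajb1 and Hspa5. Cdc37 and Hsf1 were named after their values were seen. Members and lists were chosen with earlier results of these data known. Total counts ranged from 9452476 to 40567976, and floors cover counting error only, whereas intervals come from the fit and include the spread between libraries. The study calls the replicates biological, and whether they came from separate animals is not given in the sources used here, so p-values measure the spread between these libraries.

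Whether replicate numbers pair the libraries was read from the correlation of deviations from group means, since the labels do not say. Each pair was over 0.1 for S3 with S2 (0.17 to 0.313) and for Lin+ with S0-Low (0.192 to 0.302), and 1 pair fell short for S3 with S0-Low (0.0806 to 0.131). Alternatives were DESeq2 1.42.0, RLE factors, library totals, other filters, the replicate block, each library left out and, chosen after seeing the data, replicate 3 left out everywhere and the block with library totals. On simulated data for S3 against S0-Low (16028 genes), 67 genes were changed 2-fold, 67 were changed 4-fold and 66 were changed 16-fold. The test recovered 0%, 15.6% and 47.7% of them in turn. In the data 5932 of 16555 genes were called in that comparison. The adjustment for all genes was therefore stricter in the simulation, and these shares do not carry over to the data.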

Additional observations from a re-analysis of the deposited data

How the results depend on the processing

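The calls of Hspa1a in S3 held under each alternative run, and those of Hspa1b were lost only without S2 replicate 1 or S2 replicate 2. Members that were not called are not shown to be unchanged. The simulation, with far fewer changed genes than the data, does not give the share of changes missed. For S3 against S2, 2 members were called, with 4 under no filter (8.81% of all genes), 4 with the replicate block (18.6%), 3 with library totals (15.4%, Hsp90ab1 in addition), 1 with Hspa1a and Hspa1b summed as 1 gene (9.34%), 6 without replicate 3 everywhere (18.9%) and 6 with the block and library totals (25.7%), and leaving out 1 library gave 1 to 3. Over the 5 populations 3 were called, beside 24.6% of all genes, with 5 under no filter (21.6%), 6 with the block (33.1%), 7 without replicate 3 everywhere (27.7%) and 7 with the block and library totals (38.3%). For Lin+ against S3, 3 became 5 with the block and library totals, while the share of all genes went from 42.2% to 54.8%. In S3 against S0-Low, where 1 of 3 same-numbered pairs was under the 0.1 asked for pairing (0.0806), the block also called Hspa8 (−0.80, adjusted p = 0.0422), 5 members against 4, beside 42.4% of all genes against 35.8%. With library totals too it called 6, Hspa8 (−1.63, adjusted p = 0.000817) and Hspa9 (−1.04, adjusted p = 0.00187) among them, beside 50.6% of all genes.

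Network genes higher in S3 against S2 numbered 5, beside 9.35% of all genes called in either direction, with 9 in DESeq2 (20.1%), 3 with library totals (15.4%), 0 with only the libraries compared (0.823%), 8 without replicate 3 everywhere (18.9%) and 1 to 7 when 1 library was left out (3.94% to 13.4%). Beside the same shares, those lower numbered 4, with 8 in DESeq2, 26 with library totals, 9 under no filter (8.81%), 19 with the block (18.6%), 7 with at least 10 counts in each library (14.5%), 0 with only the libraries compared, 27 without replicate 3 everywhere, 42 with the block and library totals (25.7%) and 0 to 14 when 1 library was left out. In S3 against S0-Low, 14 higher, beside 35.8% of all genes in either direction, became 8 with library totals (44.6%) and 9 with the block and library totals (50.6%). The 10 lower became 22 in DESeq2 (44.3%), 17 with RLE factors (36.9%), 41 with library totals, 18 under no filter (21.6%), 26 with the block (42.4%), 21 with at least 10 counts (38.5%), 31 without replicate 3 everywhere (37.7%), 51 with the block and library totals and 5 to 20 when 1 library was left out (24.6% to 32.7%). In Lin+ against S0-Low, 0 became 1 higher and 1 lower in DESeq2 (3.48%, against 0.715%) and with the block (1.93%), and 1 lower with the block and library totals (1.85%). The 19 network genes named in S3 against S0-Low kept direction and side of the threshold in 283 of 320 values, lost the call in 34, of which 25 left out 1 library, and passed it newly in 1 (Hsf1, −1.49, adjusted p = 0.0072, with the block and library totals). Both changes of sign were of Bag1, −0.0515 with library totals and −0.0393 with the block and library totals. The immediate early genes were not followed under alternatives.

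Uncalled changes that crossed 0 were those of Hsp90aa1, Hspa5, Hsph1, Hspa9 and Hspa1a. Hsp90aa1 in S3 against S0-Low was −0.0486 in DESeq2, −0.0487 with RLE factors, −0.769 with library totals, −0.0271 under no filter, −0.211 with at least 10 counts, −0.137 with only the libraries compared, −0.367 without replicate 3 everywhere, −0.467 with the block and library totals and −0.424 to 0.329 when 1 library was left out. Leaving out 1 library gave −0.697 to 0.0117 for Hsph1 and −0.685 to 0.0111 for Hspa9. Hspa5 was −0.014 with library totals there, and in S3 against S2 −0.332 with library totals, −0.392 without replicate 3 everywhere, −0.21 with the block and library totals and −0.2 to 0.582 when 1 library was left out. Hspa1a in Lin+ against S0-Low was −0.15 to 2.27 when 1 library was left out. The summed pair, of which Hspa1b held the larger part in S0-Low, changed by −0.353 there. That value is of the pair and not of Hspa1a, but is entered for Hspa1a in the counts that follow. Of 457 values under alternatives for 26 changes of members that the text describes, 401 kept direction and side of the threshold, 29 passed it newly, 7 lost it and 20 changed sign; the causes were not tested. Another 37 changes of members, in steps the text does not describe gene by gene, changed sign in 78 of 650 values and were called in 1. Ratios with the listed gene that is not analysed were not run.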
